A study of Homo sapiens with 4 samples.

Results

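Small RNAs act through proteins that cut them from their precursors, carry them to target mRNAs and silence those mRNAs. The mRNAs of 10 genes of this machinery were examined in lipid-loaded Hep G2 cells given a tRNA fragment mimic or a negative control. The genes were taken by name, without a threshold on their values: the Argonautes AGO1, AGO2, AGO3 and AGO4, the GW182 family proteins TNRC6A, TNRC6B and TNRC6C, the nucleases DROSHA and DICER1, and the Dicer partner TARBP2. All 10 were found among the 62655 gene IDs of the count table, and all 10 were among the 14464 genes with enough reads to be tested.

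Hep G2 is an established human liver cancer line. All 4 libraries came from cells plated at 150000 per ml, moved to oleic acid-rich medium 24 h later to load them with lipid, transfected after another 24 h and harvested 24 h after that. In 2 libraries the oligonucleotide was a mimic of LysTTT-5'tRF, a fragment of the 5' part of the lysine tRNA with anticodon TTT, and in the other 2 it was a negative control. Count columns marked NC were the control, and the remaining ones, headed by an unexplained number, were assigned to the mimic by elimination. Libraries 1 and 2 of a group are numbered as the columns are. Untransfected cells and cells without oleic acid were not analysed here.

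DROSHA cuts primary microRNA transcripts in the nucleus, and DICER1, helped by TARBP2, cuts the exported hairpins to short duplexes. An Argonaute keeps 1 strand as its guide and pairs it with target mRNAs, and the GW182 proteins bind Argonaute and recruit the deadenylases that shorten the mRNA tail. Some tRNA fragments have been found bound to Argonautes, so this machinery is one through which such a fragment could act.

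Between 15430539 and 18961222 reads per library were assigned to genes. Control library 2 differed from the other 3 in the reads left out of the counts: 10.4% of its total aligned to more than one place, against 8.30% to 8.47%, and 7.39% fell in no gene, against 8.33% to 8.60%. Of the 8 hepatocyte markers checked, all passed the filter on low counts, and their summed level was 45640 and 46105 CPM with the mimic and 43078 and 44815 CPM in the control, where CPM are reads per 1000000 after scaling library sizes by TMM factors. Of these 8, ALB was called higher with the mimic (log2 fold change 0.23, adjusted p = 0.0109, edgeR), and ALB, AFP, TTR and FGB, all higher, were at an unadjusted p under 0.05; their part in the results below was not tested. None of 6 leukocyte markers passed the filter, and 4 of them had no read in any library. Of 4 endothelial markers 3 passed, with at most 160 reads in a library, and of 5 stellate cell and fibroblast markers 2 passed, with at most 324. The summed endothelial level was 9.54 and 11.5 CPM with the mimic and 9.99 and 9.31 CPM in the control. For the stellate cell and fibroblast markers it was 22.9 and 20.1 CPM against 17.4 and 21.4 CPM. Whether the libraries of a group are from different cultures is not in the labels; their spread, on which every p-value here rests, may therefore be technical only. A higher or lower mRNA level in such bulk libraries can come from the number of cells that express a gene or from the amount per cell, which cannot be told apart.

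None of the 10 genes passed the test between mimic and control. Adjusted p-values are Benjamini-Hochberg values from the quasi-likelihood test of edgeR over all tested genes, unless another tool is named. At an adjusted p under 0.05, edgeR called 0 of 10, where it called 0.346% of all tested genes (0.277% higher and 0.0691% lower with the mimic). DESeq2, which gave 8 of the 10 an adjusted p, and limma voom also called 0. At an unadjusted p under 0.05 there were 2 of the 10, where 9.43% of all tested genes reached that level. These were AGO3, higher with the mimic (5.06% of all tested genes were at that level and higher), and AGO4, lower with the mimic (4.37%). The other 8 had log2 fold changes between -0.08 and 0.07. The median over the 10 was 0.01, beside 0.00 over all tested genes, and 4 of the 10 lay below 0, beside 49.6% of all.

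**Figure D1:**
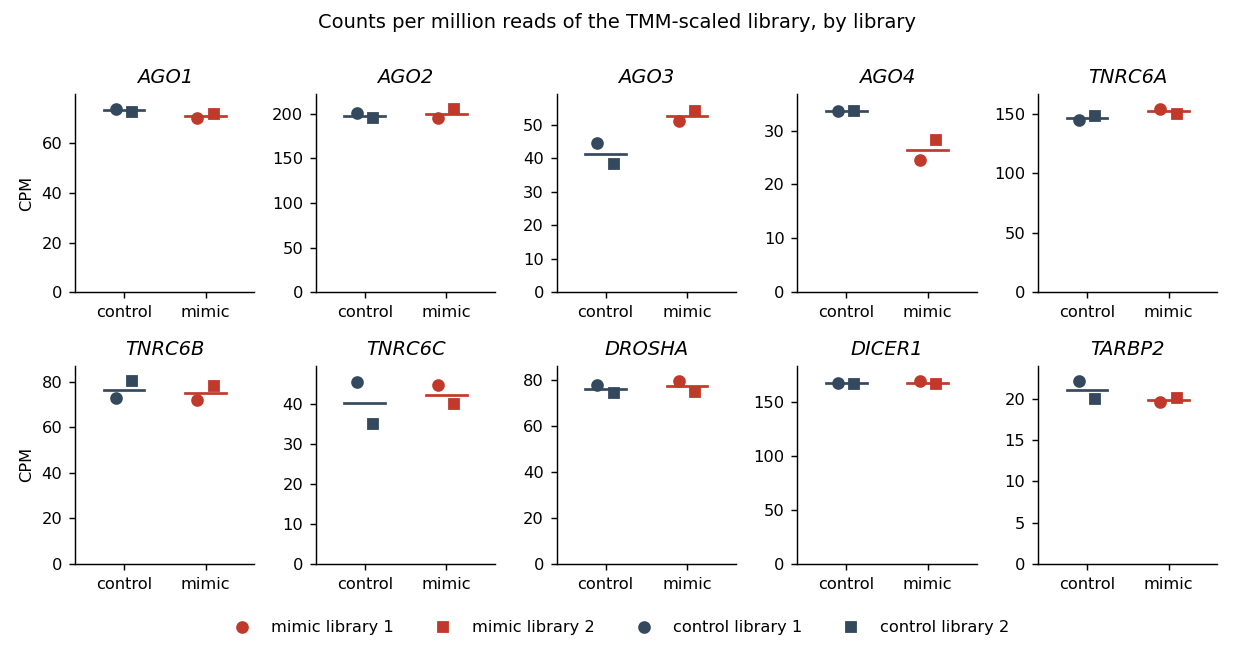
Level of each of the 10 mRNAs in CPM (vertical axes, each from 0) in the 2 control and 2 mimic libraries; circles are library 1 and squares library 2 of a group, and bars are group means. AGO3 was at 51.0 and 54.0 CPM with the mimic against 44.5 and 38.1 CPM in the control, AGO4 at 24.5 and 28.2 CPM against 33.6 and 33.5 CPM, and the points of DICER1 lie almost on one line.

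The Argonautes had unlike values: AGO1 and AGO2 were close to 0 in fold change, and AGO3 and AGO4 lay farther out on opposite sides. AGO2, the Argonaute known for cutting well-paired targets, stood at 195 and 205 CPM in mimic libraries 1 and 2 and at 201 and 195 CPM in control libraries 1 and 2. The gene lies apart from the other 3, on chromosome 8. The groups overlapped, and the log2 fold change of AGO2 was 0.02 (95% interval -0.09 to 0.13). AGO1, which also carries microRNAs but is a poor slicer, was at 70.2 and 71.8 CPM with the mimic and at 73.7 and 72.7 CPM in the control. Its groups did not overlap, but the distance was small, with a log2 fold change of -0.04 (95% interval -0.18 to 0.09).

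AGO3, an Argonaute with microRNA guides that can cut targets only under limited conditions, had 781 and 1014 reads in mimic libraries 1 and 2 and 748 and 614 reads in control libraries 1 and 2. Scaled for library size these were 51.0 and 54.0 CPM with the mimic and 44.5 and 38.1 CPM in the control. Both mimic libraries lay above both control libraries, and control library 2 was the lowest. The means were 52.5 ± 2.10 CPM and 41.3 ± 4.49 CPM (SD, n = 2 each), which is 1.27-fold with a log2 fold change of 0.35 (SE 0.08, 95% interval 0.17 to 0.52). It did not pass: edgeR gave an adjusted p of 0.0846 (unadjusted p = 0.000456). Without control library 1 the log2 fold change of AGO3 was 0.46, and without control library 2 it was 0.24. Each of these fits rests on a lone control library, and the cause of this dependence was not tested.

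AGO4, an Argonaute that binds microRNAs without cutting their targets, had 375 and 529 reads in mimic libraries 1 and 2 and 565 and 540 reads in control libraries 1 and 2. This was 24.5 and 28.2 CPM with the mimic and 33.6 and 33.5 CPM in the control. Both mimic libraries lay below both controls, which were nearly equal, and mimic library 1 was the lowest. Group means were 26.3 ± 2.59 CPM and 33.6 ± 0.0437 CPM (SD, n = 2 each), a ratio of 0.788 and a log2 fold change of -0.34 (SE 0.10, 95% interval -0.55 to -0.14). AGO4 did not pass either, at an edgeR adjusted p of 0.180 (unadjusted p = 0.00189). With mimic library 1 left out the log2 fold change of AGO4 was -0.25 (adjusted p = 0.797, edgeR), and with mimic library 2 left out it was -0.46 (adjusted p = 0.0675, edgeR).

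**Figure D2:**
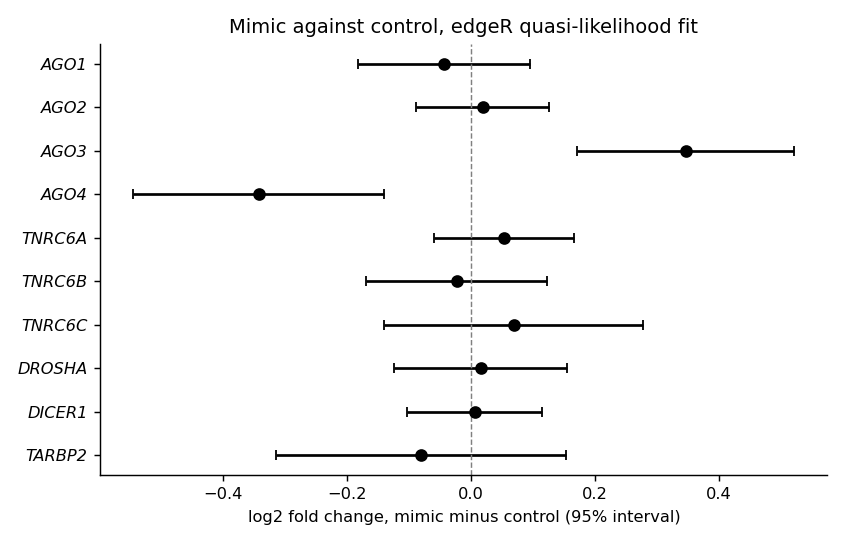
Log2 fold change of mimic against control for the 10 genes (points) with 95% intervals (horizontal bars) from the fit over all tested genes. The intervals of AGO3 (0.17 to 0.52) and AGO4 (-0.55 to -0.14) do not include 0, and the other 8 do; none of the 10 passed after adjustment over 14464 genes.

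The ratio of AGO3 to AGO4 reads within a library does not depend on how libraries are scaled. It was 2.08 and 1.92 in mimic libraries 1 and 2 and 1.32 and 1.14 in control libraries 1 and 2. The mimic libraries were both above the controls, with means of 2.00 ± 0.117 and 1.23 ± 0.132 (SD, n = 2 each), a 1.63-fold difference. An exact permutation test over libraries, two-sided, gave p = 0.333, the smallest that 2 against 2 allows. This pair was picked after the values of both genes had been seen. Against AGO1, which lies between them on the chromosome, AGO3 stood at 0.727 and 0.752 reads per AGO1 read with the mimic and at 0.604 and 0.524 in the control. The same ratio for AGO4 was 0.349 and 0.392 with the mimic and 0.456 and 0.461 in the control.

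**Figure D3:**
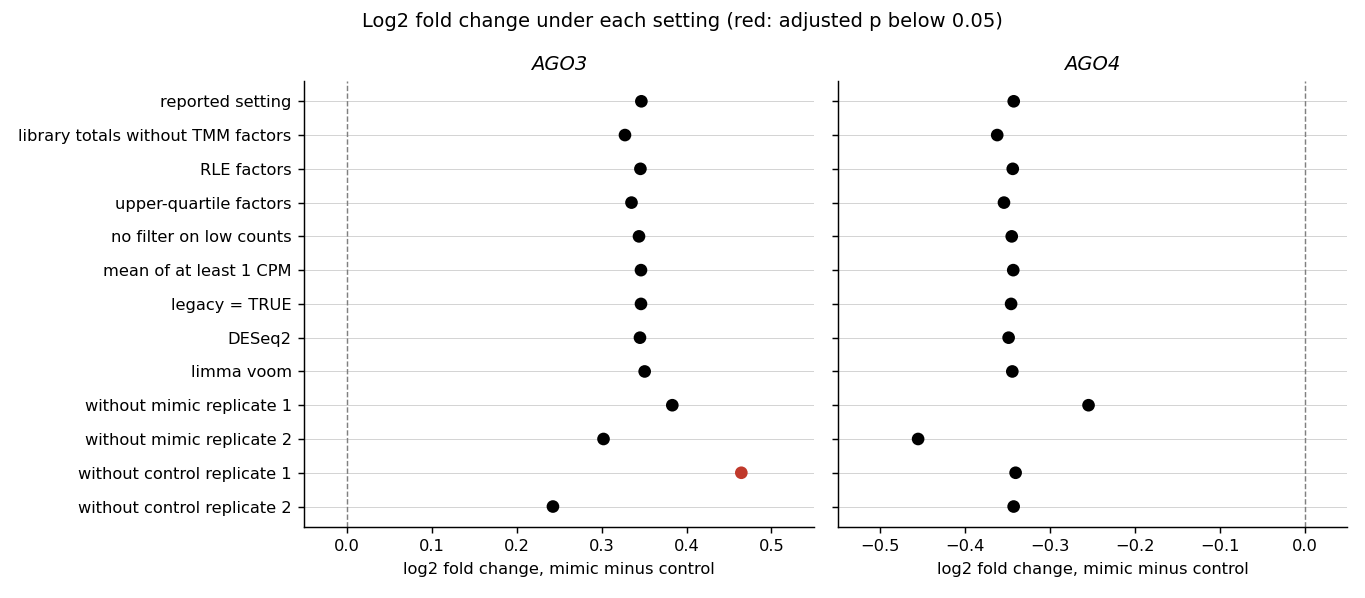
Log2 fold change of AGO3 (left) and AGO4 (right) under the reported setting and 12 of the 13 alternatives (rows), with red for an adjusted p under 0.05; not drawn is the fit with a block by column number, under which both genes were called and whose values stand with the processing alternatives. AGO3 stays between 0.24 and 0.46 and AGO4 between -0.46 and -0.25. The red point among those drawn is AGO3 without control library 1, a fit that rests on a lone control library. DESeq2 gave AGO4 no adjusted p.

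AGO4, AGO1 and AGO3 lie in this order on the plus strand of chromosome 1 (GRCh38.p14), from 35807636 to 35857890, 35869761 to 35930532 and 35930718 to 36072500. All 3 are protein-coding. Sequences at an annotated start of each neighbour on chromosome 1 are shown. AGO4 and AGO3 had the smallest p-values of the 10 genes, with fold changes of opposite sign, and AGO1 lies between them. For each, the 250 bases before an annotated start are given 5' to 3' on the plus strand from RefSeq (GRCh38.p14), with capitals for the GC box GGGCGG and the CCAAT box CCAAT on either strand. The windows are chr1:35807766-35808015 for AGO4, chr1:35882959-35883208 for AGO1 and chr1:35930855-35931104 for AGO3. All 3 windows lie inside the gene intervals given above. The start that each precedes is therefore internal to the gene, and the sequence before the outermost start is not shown.
AGO4: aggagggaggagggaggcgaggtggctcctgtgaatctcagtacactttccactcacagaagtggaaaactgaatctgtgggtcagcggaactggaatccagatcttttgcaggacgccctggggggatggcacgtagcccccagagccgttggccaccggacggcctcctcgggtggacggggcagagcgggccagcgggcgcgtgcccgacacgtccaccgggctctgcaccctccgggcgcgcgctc
AGO1: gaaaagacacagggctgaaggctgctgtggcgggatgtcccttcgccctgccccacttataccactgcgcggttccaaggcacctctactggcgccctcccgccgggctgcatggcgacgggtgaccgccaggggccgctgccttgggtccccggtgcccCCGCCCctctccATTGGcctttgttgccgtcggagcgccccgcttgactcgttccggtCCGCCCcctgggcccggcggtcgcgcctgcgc
AGO3: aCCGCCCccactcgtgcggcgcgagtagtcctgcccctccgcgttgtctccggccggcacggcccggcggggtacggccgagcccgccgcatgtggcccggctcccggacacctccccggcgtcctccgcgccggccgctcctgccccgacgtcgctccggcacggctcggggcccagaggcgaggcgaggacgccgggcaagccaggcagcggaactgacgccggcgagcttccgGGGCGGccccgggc
The AGO4 window held 20 CpG pairs and neither motif. In AGO1 there were 25 CpG pairs, 2 GC boxes and 1 CCAAT box, and in AGO3 41 CpG pairs, 2 GC boxes and no CCAAT box. Of the 35116 RefSeq windows of this length, 42.6% held a GC box and 32% a CCAAT box, and the median was 11 CpG pairs. Of all windows, 98.3% had fewer CpG pairs than that of AGO3. These matches describe the sequence and say nothing of which factors bound it.

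Of the other tested genes within 250000 bases of this cluster, 0 of 10 were called by edgeR, beside 0.346% of all tested genes. At an unadjusted p under 0.05 there were also 0, beside 9.43% of all tested genes. The 10 ran from -0.23 for SH3D21 to 1.03 for C1orf216, and 6 of them lay below 0. C1orf216 had few reads, at 1.31 and 0.745 CPM with the mimic and 0.416 and 0.559 CPM in the control. On the AGO4 side, CLSPN, a checkpoint mediator of DNA replication, had a log2 fold change of -0.04, and on the AGO3 side ADPRS, a hydrolase that removes ADP-ribose from proteins, had one of 0.06.

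Annotated transcripts were compared for stretches that reads of the Argonautes could share. No stretch of 50 bases in any annotated transcript of the 10 genes (GENCODE 29) occurred in a transcript of another of the 10, and at most 1.26% of such stretches, in AGO3, occurred in a transcript of any other gene. The read length is not given in the sources used here, so how far this holds for the reads was not tested. Exons on the opposite strand overlapped 0.406% of the exon bases of AGO3 and 2.85% of those of AGO1, and AGO4 had no overlap.

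Levels of different genes were compared as CPM per kb of merged exon length. Among the Argonautes AGO2 was the most abundant at 12.6 CPM per kb over the 4 libraries, followed by AGO1 at 5.19, AGO4 at 4.12 and AGO3 at 2.22 CPM per kb. The sum of AGO1 to AGO4 was 23.2 and 24.5 CPM per kb in mimic libraries 1 and 2 and 24.7 and 24.0 CPM per kb in control libraries 1 and 2, so the groups overlapped. Within that sum AGO2 held 53.2% and 52.8% with the mimic and 51.3% and 51.3% in the control. The share of AGO3 was 10.4% and 10.4% with the mimic against 8.51% and 7.52% in the control. For AGO4 the share was 14.5% and 15.8% with the mimic against 18.7% and 19.3% in the control. The order AGO2, AGO1, AGO4, AGO3 held in each of the 4 libraries, and for the means also when length was that of the longest annotated transcript. AGO3 had more reads than AGO4 in every library and comes last here through its length, 21157 bases of merged exons against 7267 for AGO4. Annotated 3' UTRs make up much of these lengths, and which of them the cells use was not tested.

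**Figure D4:**
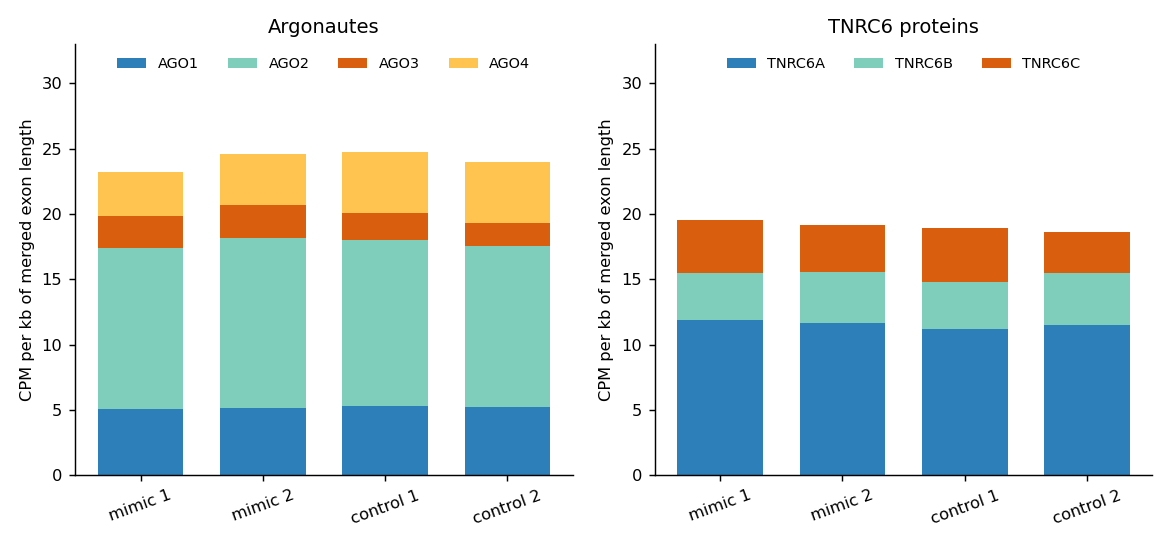
Level in CPM per kb of merged exon length (vertical axis) in each library, stacked over AGO1 to AGO4 (left) and over TNRC6A to TNRC6C (right). The Argonaute sums lie between 23.2 and 24.7 and overlap between groups, while the AGO3 part is thicker and the AGO4 part thinner in the mimic libraries.

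The GW182 proteins tie Argonaute to deadenylation, and none of their mRNAs passed the test. TNRC6A, the founding member, was at 154 and 150 CPM in mimic libraries 1 and 2 and at 144 and 149 CPM in control libraries 1 and 2. Its groups did not overlap, but the log2 fold change was 0.05 (95% interval -0.06 to 0.17). TNRC6B stood at 71.9 and 78.0 CPM with the mimic and at 72.6 and 80.1 CPM in the control, with library 2 the higher in both groups. The TNRC6B log2 fold change was -0.02 (95% interval -0.17 to 0.12). TNRC6C had 44.7 and 40.0 CPM with the mimic and 45.4 and 35.0 CPM in the control, the widest spread within a group relative to its mean among the 10 genes. For TNRC6C the log2 fold change was 0.07 with an interval from -0.14 to 0.28, and 12.9% of its exon bases lie opposite TNRC6C-AS1, so part of its count is uncertain.

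Per kb, TNRC6A was the most abundant of this family at 11.5 CPM per kb, with TNRC6B at 3.78 and TNRC6C at 3.71 CPM per kb. TNRC6A made up between 59.2% and 61.6% of the summed level of the family in the 4 libraries. TNRC6B and TNRC6C could not be put in order, since their ranges over the libraries overlapped.

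The mRNAs of the processing nucleases and of TARBP2 did not pass the test, and their groups overlapped. DICER1, the nuclease that makes the final duplex, was at 170 and 167 CPM in mimic libraries 1 and 2 and at 168 and 167 CPM in control libraries 1 and 2. Its means of 169 ± 2.50 CPM and 168 ± 0.308 CPM (SD, n = 2 each) gave a log2 fold change of 0.01 with a 95% interval from -0.10 to 0.12. In percent of the control level this interval ran from -6.87% to 8.35%. DROSHA was at 79.4 and 74.6 CPM with the mimic and at 77.8 and 74.2 CPM in the control, overlapping, with a log2 fold change of 0.02 (95% interval -0.12 to 0.16). TARBP2, which helps Dicer measure and hand over its product, was the least counted of the 10 genes, with 301 to 378 reads per library. It stood at 19.7 and 20.1 CPM with the mimic and at 22.1 and 19.9 CPM in the control, and the 95% interval around its log2 fold change of -0.08, from -0.31 to 0.15, was the widest of the 10.

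Across all 10 genes the order per kb was DICER1 at 13.7, AGO2 at 12.6, TNRC6A at 11.5, DROSHA at 9.83, AGO1 at 5.19, TARBP2 at 5.00, AGO4 at 4.12, TNRC6B at 3.78, TNRC6C at 3.71 and AGO3 at 2.22 CPM per kb. Ranges over the libraries overlapped between AGO1 and TARBP2, between AGO4 and TNRC6B and between TNRC6B and TNRC6C, so these neighbours have no order. The median tested gene had 4.22 CPM per kb. DICER1 lay at percentile 78.8 of the 14086 tested genes that have an exon length, and AGO3 at percentile 35.7. The order across families depends on the length used: with the longest transcript TNRC6A had 17.7 CPM per kb, DICER1 16.3, DROSHA 14.4, AGO2 13.6 and TARBP2 10.96.

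Of the 10 genes 4 (40%) had groups that did not overlap, AGO1, AGO3, AGO4 and TNRC6A, and 39.1% of all tested genes did so. The share among the 10 was thus near that of all genes.

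The study's title names miR-194-5p, a microRNA abundant in liver, which would act through this machinery. Its mature sequence is shown from RefSeq with its seed, bases 2 to 8, in capitals, above the seed matches (CTGTTAC, in capitals) found in members. The 3' UTRs were those of the GENCODE 29 transcript with the longest coding part.
hsa-miR-194-5p: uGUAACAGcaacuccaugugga
AGO1: ggcagaacgCTGTTACctcactgga
TNRC6A: ctcatacctCTGTTACaaagcgaga
AGO1, AGO2 and TNRC6A held 1 match each, and the other 7 held none, AGO3 and AGO4 included, on 3' UTRs of 16755 and 4285 bases. The match of AGO2 is not shown. The matches began at base 11 of the 3' UTR in AGO1, 4518 in AGO2 and 2005 in TNRC6A. An A followed the match in AGO2 and TNRC6A but not in AGO1. Among 11660 tested genes with a 3' UTR of at least 30 bases 9.93% held a match, and among the 1191 with at least 4000 bases 33.5%. Levels of miR-194-5p were not analysed here. The sequence of the tRNA fragment mimic is not given in the sources used here, so no match to it was sought.

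The rest of the pathway showed no called gene either. Lists of 118 further genes were counted, of which 98 were tested, and 0 of 98 were called by edgeR, by limma voom, or by DESeq2 among the 71 it gave an adjusted p. At an unadjusted p under 0.05 edgeR gave 6 of 98, 4 higher and 2 lower with the mimic, which is 6.12% beside 9.43% of all tested genes. The median log2 fold change over the 98 was 0.02.

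For nuclear processing and export, with DGCR8, the partner of DROSHA, and the exporter XPO5 among them, 0 of 17 reached an unadjusted p under 0.05, and the values ran from -0.05 to 0.08. SAFB and SAFB2, nuclear proteins that aid processing of clustered hairpins, had the smallest p with log2 fold changes of 0.06 and 0.08. The most abundant, HNRNPA1, an RNA-binding protein that aids cutting of some hairpins, was at 778 CPM with the mimic against 775 CPM in the control.

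Among Dicer partners and enzymes that tail, trim or destroy small RNAs, 11 of 12 were tested, with a median of 0.03. ZC3H12A, also called Regnase-1, a nuclease that cuts inflammatory mRNAs and microRNA precursors, had 15.3 and 10.6 CPM with the mimic and 10.4 and 9.07 CPM in the control. Only mimic library 1 was clearly higher, and the log2 fold change was 0.39 (adjusted p = 0.489, edgeR). TUT7, a uridylating enzyme, stood at 0.13. LIN28B, the fetal inhibitor of let-7 processing and named after its value was seen, was at 176 and 174 CPM with the mimic and 164 and 167 CPM in the control, with a log2 fold change of 0.08 (unadjusted p = 0.149, edgeR). Its paralog LIN28A had at most 3 reads in a library and was not tested. TRIM71, a ubiquitin ligase of stem cells, was the most abundant of the list at 370 CPM with the mimic against 374 CPM in the control.

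The chaperones and other factors that load, import or modify Argonaute had a median of 0.05, and 5 of 20 lay below 0, beside 49.6% of all tested genes. At an unadjusted p under 0.05 there were 3 of 20, all higher, beside 5.06% of all tested genes: IPO8, an importin that carries Argonaute, with a log2 fold change of 0.17, the HSP110 family chaperone HSPA4 with 0.11, and DNAJB6, a co-chaperone named after its value was seen, with 0.15. IPO8 was at 53.1 and 53.2 CPM with the mimic and at 46.0 and 48.3 CPM in the control (adjusted p = 0.486, edgeR). HSP90AB1, the most abundant, stood at 2742 CPM with the mimic against 2731 CPM in the control.

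Of the 15 deadenylase genes, 1 (6.67%) reached an unadjusted p under 0.05 in edgeR, beside 9.43% of all tested genes. CNOT7, a catalytic subunit of the CCR4-NOT deadenylase, was at 94.7 and 103.6 CPM with the mimic and at 108 and 114 CPM in the control, with a log2 fold change of -0.16 (adjusted p = 0.400 in edgeR). CNOT6L, another catalytic subunit, stood at -0.14, and the poly(A) binding protein PABPC1, the most abundant, at 0.07. Among 22 genes of decapping, decay and translational repression 0 reached an unadjusted p under 0.05 in edgeR, with the decapping enzyme DCP2 at 0.13, the repressor GIGYF1 at -0.12 and the most abundant, PUM2, at 0.05.

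**Figure D5:**
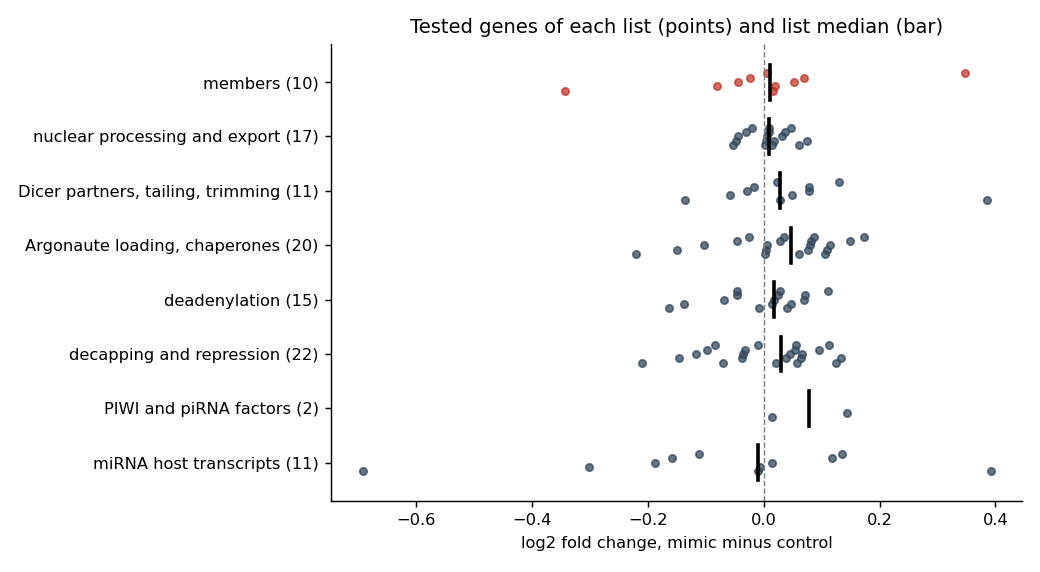
Log2 fold change of mimic against control (horizontal axis) for the 10 genes (top, red) and the tested genes of 7 further lists (number tested in brackets), with list medians as bars. AGO3 and AGO4 lie at 0.35 and -0.34; the nuclear processing, loading, deadenylation and decapping genes run from -0.22 to 0.17, the Dicer partners reach 0.39 (ZC3H12A), and the host transcripts run from -0.69 to 0.39.

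The PIWI branch of the Argonaute family, known for silencing transposons in the germ line, was nearly absent. Of 10 PIWI and piRNA genes 2 were tested, PIWIL2 at 6.48 CPM with the mimic against 5.88 CPM in the control, and PLD6 at 7.57 and 7.45 CPM. PIWIL3 and PIWIL4 had no read in any library, and PIWIL1 had at most 3.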

How the data were processed

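RNA from 4 libraries of Hep G2 cells, 2 per treatment, was poly(A)-selected and sequenced after stranded library preparation from 500 ng, with an RNA integrity number above 9.5, per the labels' protocols. The authors deposited raw read counts by Ensembl gene ID, with no normalization. Bowtie2, STAR, HTSeq and FastQC and the build GRCh38.p14 are named in the submitters' processing notes; which versions, annotation and strand setting were used is not given in the sources used here. The 5 entries that name no gene held 23.1% to 24.1% of each library's total and were left out. 

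Tests used edgeR 4.0.16 (R 4.3.3): filterByExpr (minimum count 10, minimum total 15), TMM factors and the quasi-likelihood F test (legacy = FALSE), with Benjamini-Hochberg adjustment over 14464 genes and a threshold of 0.05. CPM are scaled to 1000000 reads with TMM library sizes; means are ± SD of 2 libraries. The fit was also run on counts simulated from its own dispersion estimates. Such counts cannot show whether the p-values hold if the libraries of a group are technical replicates. Exon lengths and overlaps came from GENCODE 29 (GRCh38), gene positions and promoters from RefSeq (GRCh38.p14). Alternatives were other scalings and filters, legacy = TRUE, DESeq2 1.42.0, limma 3.58.1 voom, leaving out each library, a replicate block by column number and the longest transcript. All 10 members were named, and of each further list any called gene, otherwise the 2 with the smallest p and the most abundant. Members and lists were chosen with earlier results of these data known.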

Additional observations from a re-analysis of the deposited data

How the results depend on the processing

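AGO1, AGO3, AGO4, TNRC6A and TARBP2 kept their direction under all 13 alternatives to the reported fit. The other members, whose log2 fold changes were all near 0, changed sign under some. With library totals AGO2 was at -0.000232, DROSHA at -0.00335 and DICER1 at -0.0129, and with upper-quartile factors DICER1 was at -0.00500. When each library was left out in turn, AGO2 ran from -0.018 to 0.051, TNRC6B from -0.092 to 0.050, TNRC6C from -0.10 to 0.27, DROSHA from -0.028 to 0.061 and DICER1 from -0.010 to 0.021. The number of members called ran from 0 to 1 when a library was left out, the 1 being AGO3 without control library 1. Over all genes the calls ran from 20 to 424 when a library was left out, with 20 without mimic library 1 and 22 without control library 2. They were 0 with no filter on low counts (1514 at an unadjusted p under 0.05, edgeR) and 30 in DESeq2, which gave adjusted p-values to 5210 genes. Where a library was left out, the lone library of its group was assumed to vary like the others. The 98 pathway genes gave 0 calls under every alternative run. The adjusted p of AGO3 ran from 0.000478 to 0.754 over the alternatives, and that of AGO4 from 0.0206 to 0.797 (edgeR, DESeq2 and limma voom).

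The columns of both groups carry the numbers 1 and 2, but the sample titles do not share numbers, and the deviations of same-numbered libraries from their group means had a correlation of 0.0234 over 14464 genes and of 0.0797 over the 10233 genes that averaged 5 CPM or more. With a replicate block by column number 306 genes and 2 members were called, AGO3 (log2 fold change 0.35, adjusted p = 0.00128, edgeR) and AGO4 (-0.35, adjusted p = 0.0206, edgeR).

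With the longest transcript as length, the mean share over the libraries was 20.6% in place of 21.5% for AGO1, 53.5% in place of 52.2% for AGO2, 67.9% in place of 60.6% for TNRC6A, 15.9% in place of 19.9% for TNRC6B and 16.2% in place of 19.5% for TNRC6C. Each member had at least 301 reads in every library, and with 2 libraries per group no exact test over libraries can go below p = 0.333.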

Other observations

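Transcripts that host microRNAs gave a view of the input of this machinery, although poly(A)-selected RNA holds only the part of a primary transcript that was spliced or left uncut. Of 22 host transcripts 11 were tested, and edgeR called 0, beside 0.346% of all tested genes. At an unadjusted p under 0.05 there was 1 of 11 (9.09%), near the 9.43% of all tested genes. This was MIR222HG, which hosts miR-221 and miR-222, with 2.48 and 1.86 CPM in mimic libraries 1 and 2 and 3.39 and 3.54 CPM in control libraries 1 and 2. Its groups did not overlap, as held for 39.1% of all tested genes, and the log2 fold change was -0.69 (95% interval -1.31 to -0.07, adjusted p = 0.472, edgeR). MIR34AHG, host of miR-34a, stood at -0.16, and MIR4435-2HG, the most abundant host, at 0.12. MIR194-2HG, a host of miR-194, had 14 to 25 reads per library, at 1.57 and 1.33 CPM with the mimic and 1.31 and 0.869 CPM in the control, too few for a narrow interval (log2 fold change 0.39, -0.50 to 1.29). MIR122HG, host of the main hepatocyte microRNA, had at most 3 reads in a library and was not tested.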
